A study of Mus musculus with 9 samples.

Results

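The Notch receptors and their ligands were followed through a mouse model of WNT medulloblastoma, a tumour of the hindbrain. The members are the 10 gene symbols Notch1, Notch2, Notch3, Notch4, Dll1, Dll3, Dll4, Jag1, Jag2 and Dner, taken by name from a table of 24444 gene symbols, and all 10 passed the low-count filter that left 15171 genes for testing. RNA sequencing gave 9 libraries in 3 groups of 3. The first group, MycT58A, held tumours that carried a mutant Myc whose protein is degraded more slowly. The second group, EV, read here as empty vector, held tumours with the vector alone. Tumour cells of both groups came from Blbp-Cre mice with Ctnnb1 floxed at exon 3 on both alleles (Ctnnb1Ex3flx/flx), Trp53flx/flx and 1 floxed allele of Pik3caE545K, and they were implanted orthotopically into CD1-nude hosts. The third group, control, was normal cerebellum of CD1-nude mice, without implanted cells. By genotype, both tumour groups therefore share the stabilised beta-catenin, the loss of Trp53 and the active Pik3ca, and they differ by label only in the vector. Recombination of the floxed alleles was not tested here.

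The Blbp (Fabp7) promoter is active in radial glia and neural progenitors. CD1-nude mice lack a thymus and so most T cells, and keep their other immune and vessel cells. GFP-positive tumour regions were cut out as pieces, so each library is bulk RNA of tumour cells together with host cells. The labels speak of biological replicates but do not say whether the libraries of a group came from separate tumours or animals, so a p-value here reflects only how far these libraries lie apart. The promoter of the vector, the number of cell preparations behind the implants and the ages of the mice were not stated in the labels.

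Notch signalling passes between touching cells. A ligand of the Delta or Jagged kind on one cell pulls on a Notch receptor on the next, the receptor is cut first by an ADAM protease and then by gamma-secretase, and the freed intracellular domain enters the nucleus, binds RBPJ and Mastermind and switches on genes of the Hes and Hey families. In the developing brain the pathway is known for keeping progenitors undifferentiated. In vessels, Dll4 and Notch4 are typical of endothelium and Notch3 of the mural cells around it, and in the cerebellum Dner, a Delta-like membrane protein, is typical of Purkinje cells and is a proposed Notch ligand for Bergmann glia.

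Library depth ranged from 16631523 counts in the library labelled EV replicate 3 to 30410089 in MycT58A replicate 2. Levels are given as CPM, counts scaled to a common library total, on library sizes scaled by TMM, and 3 counts in the smallest library correspond to 0.170 CPM. Myc itself checks the labels. It had 918, 859 and 727 CPM in the MycT58A libraries, 360, 19.9 and 762 CPM in the libraries labelled EV replicates 1, 2 and 3, and 0.94, 1.60 and 32.0 CPM in control cerebellum. The library labelled EV replicate 3 thus lay inside the MycT58A range. EV replicate 2 lay inside the control range, the top of which was control replicate 3, far above the other controls. Results that rest on the library labelled EV replicate 3 are given with and without it. The labels name both cerebellum and cortex for the controls. The cerebellar marker Gabra6 had 888, 788 and 522 CPM in the control libraries, the Purkinje marker Pcp2 206, 138 and 167 CPM, and the cortical marker Emx1 had no count in any of them. Differences were tested with edgeR's quasi-likelihood test in 1 fit of all 9 libraries, with Benjamini-Hochberg adjustment over the 15171 genes and a threshold of 0.05 on the adjusted p.

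Notch2, Jag1 and Dner were the members past the threshold in both tumour groups against control, and the sequences before their first exons are shown for that reason. They are the bases upstream of the RefSeq start, up to 250, that lie outside the GENCODE vM21 gene, from the RefSeq table of build GRCm38.p6, written in the direction of transcription with each CG dinucleotide in capitals. The Notch2 stretch (chr3:98013288-98013526, plus strand) is 239 bases long, holds 34 CG dinucleotides and is 74.1% G or C. The Jag1 stretch (chr2:137116645-137116770, minus strand) is 126 bases long, with 14 CG dinucleotides and 70.6% G or C. The Dner stretch (chr1:84696222-84696471, minus strand) is 250 bases long, with 11 CG dinucleotides and 56.8% G or C.
Notch2: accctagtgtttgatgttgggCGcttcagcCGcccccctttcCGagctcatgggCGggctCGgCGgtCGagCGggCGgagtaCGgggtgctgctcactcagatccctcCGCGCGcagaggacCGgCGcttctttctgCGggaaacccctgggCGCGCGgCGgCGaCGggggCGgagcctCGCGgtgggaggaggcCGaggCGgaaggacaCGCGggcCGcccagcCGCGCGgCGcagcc
Jag1: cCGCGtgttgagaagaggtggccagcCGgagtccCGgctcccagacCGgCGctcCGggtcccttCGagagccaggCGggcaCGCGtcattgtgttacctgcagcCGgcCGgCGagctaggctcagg
Dner: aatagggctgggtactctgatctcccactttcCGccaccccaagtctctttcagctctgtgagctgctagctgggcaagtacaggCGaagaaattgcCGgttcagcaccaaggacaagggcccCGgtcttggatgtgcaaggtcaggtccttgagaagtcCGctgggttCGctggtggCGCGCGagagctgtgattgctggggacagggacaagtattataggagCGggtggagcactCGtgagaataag

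CG dinucleotides are the sites of DNA methylation and are dense at promoters of many widely used genes. Per 100 bases the Notch2 stretch held 14.2 of them, the Jag1 stretch 11.1 and the Dner stretch 4.4. Over all RefSeq windows of 250 bases the median was 6 CG dinucleotides per window, not per 100 bases, and 52.4% G or C. On that measure the full windows of Notch2, Jag1 and Dner held 34, 20 and 11 CG dinucleotides. Their G or C content was 72.0%, 57.2% and 56.8%. All 10 members had at least 1 window of 250 bases in the table, 11 windows in all. The letters TGGGAA, the core of the RBPJ motif, occurred on either strand in 21.6% of all 32851 windows and in 0 of these 11. CACGTG, the E-box that MYC binds, occurred in 6.02% of all windows, CTTTGAT and CTTTGTT, both TCF/LEF letters, in 3.21% and 5.03%, and none of the 3 occurred in the 11. These are descriptions of letters in short windows, and methylation and binding were not measured.

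MycT58A tumours differed from EV tumours at 0 of 10 members, while 8.3% of all genes tested passed the same threshold (3.28% higher and 5.02% lower). At an unadjusted p under 0.05 the count was 0 of 10 with edgeR, 1 with DESeq2 and 2 with limma-voom. The share of all genes at that unadjusted cutoff is not given here. Counts at it, also those of the lists below, are therefore not read as a result. With each of these tools 0 members passed the adjusted threshold. DESeq2 gave no adjusted p for Jag1. Between the libraries of these groups, 0 of 10 members were free of overlap, against 31.8% of all genes (18.2% higher and 13.6% lower). The median log2 fold change of the members was -0.44, beside -0.04 over all genes. Against control, MycT58A tumours had 4 of 10 members past the threshold, Notch2 and Jag1 higher and Dner and Dll1 lower, while 62.2% of all genes passed (31.2% higher and 31% lower). EV tumours had 3 of 10 past it against control, Notch2 and Jag1 higher and Dner lower, while 57% of all genes passed (30.7% higher and 26.3% lower). The shares of members called were therefore below the shares of all genes in each comparison. Libraries did not overlap for 6 of 10 members in MycT58A against control, with Notch2, Dll4, Jag1 and Jag2 higher and Dll1 and Dner lower, beside 82.5% of all genes (41% higher and 41.5% lower). In EV against control they did not overlap for 5 of 10, 3 higher (Notch2, Notch4 and Jag1) and 2 lower (Dll1 and Dner), beside 62.5% of all genes (30.3% higher and 32.2% lower). The median log2 fold change of the members was 0.36 in MycT58A against control and 0.83 in EV against control, beside -0.02 and 0.14 over all genes. The 2 comparisons with control share the control libraries, and all 3 share 1 estimate of spread per gene.

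**Figure D1:**
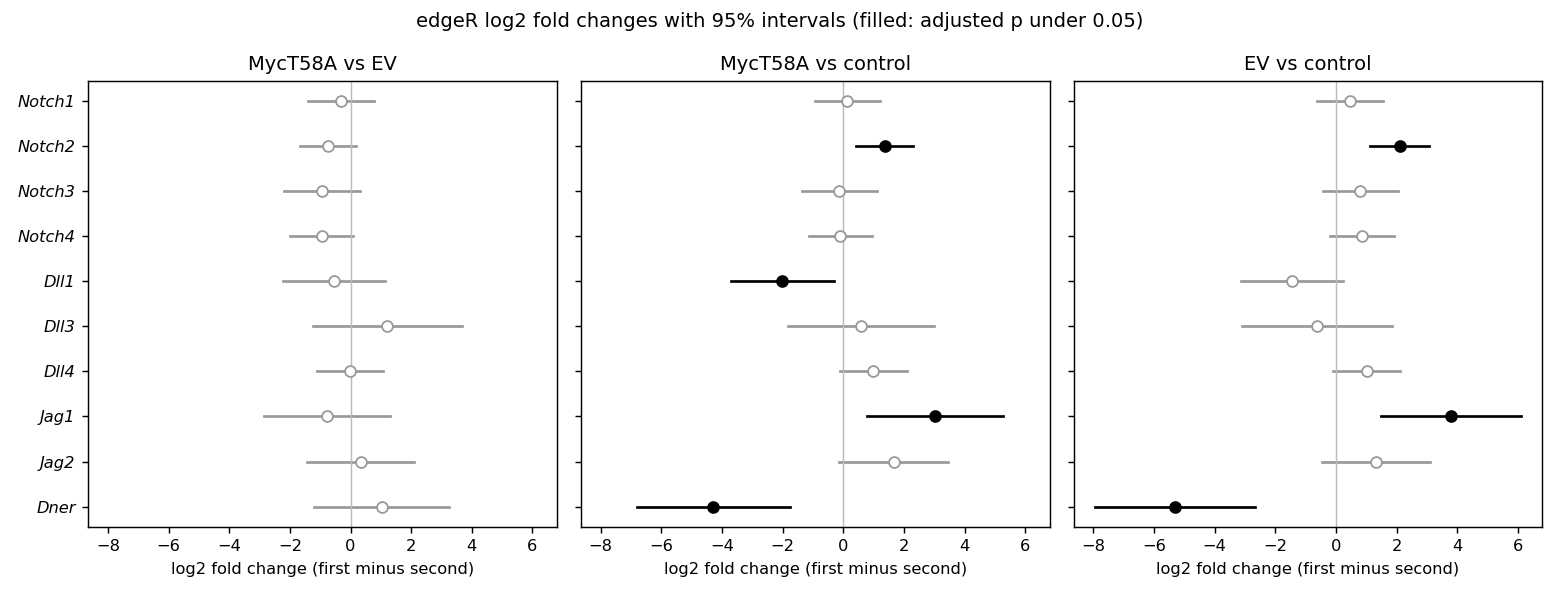
Log2 fold changes of the 10 members (first group minus second) in the 3 comparisons, with 95% intervals as lines and filled points where the edgeR adjusted p was under 0.05. No member is filled for MycT58A against EV, Notch2, Jag1, Dner and Dll1 are filled for MycT58A against control, and the first 3 of these for EV against control.

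Notch2 was the receptor that rose in the tumours. It is a single-pass receptor known in the cerebellum from granule neuron precursors, and it lies on chromosome 3 at 98013527 to 98150361 (mm10, plus strand). Notch2 had 49.97, 39.8 and 49.2 CPM in MycT58A tumours, 123, 71.9 and 36.9 CPM in EV tumours and 13.4, 24.3 and 16.2 CPM in control cerebellum. Every tumour library was above every control library, the lowest tumour value belonged to the library labelled EV replicate 3, and the highest to EV replicate 1. Against control, Notch2 was 2.58-fold higher in MycT58A tumours (log2 fold change 1.37 ± 0.42 SE, edgeR adjusted p = 0.0194) and 4.30-fold higher in EV tumours (2.11 ± 0.43, edgeR adjusted p = 0.00331). The call in MycT58A tumours was lost without control replicate 1 or 3 or MycT58A replicate 1 or 3 (edgeR adjusted p between 0.0509 and 0.0666). That in EV tumours held under all 17 alternatives. MycT58A against EV gave -0.74 ± 0.41 (edgeR adjusted p = 0.251, 95% interval -1.68 to 0.20). Marker sums for neural progenitors ranged from 2262 to 2513 CPM in MycT58A tumours, 2114 to 3369 CPM in EV tumours and 478 to 652 CPM in control (8 genes, among them Nes, Sox2 and Vim, with Dcx at 0 in EV replicate 1), and those of astrocytes and Bergmann glia from 307 to 659, 721 to 1498 and 6381 to 11763 CPM (10 genes, all detected in every library). Of the 8 progenitor markers, 3 (Mki67, Nes and Vim) passed as higher than control in each tumour group, beside 31.2% and 30.7% of all genes. Sox9 passed as lower in MycT58A tumours, and 4 and 5 markers passed in neither direction in MycT58A and EV tumours. The median log2 fold change of this list was 0.72 in MycT58A tumours and -0.56 in EV tumours. The part of these cell types in the Notch2 difference was not tested. In bulk tissue, more cells that carry a transcript and more of it per cell cannot be told apart.

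Notch1, the receptor best known from progenitors and endothelium, had 24.3, 23.7 and 25.4 CPM in MycT58A tumours, 9.62, 43.2 and 39.1 CPM in EV tumours and 16.8, 23.7 and 26.2 CPM in control cerebellum. The MycT58A values lay inside the control range and the EV values on both sides of it. Its log2 fold change was -0.32 ± 0.48 SE for MycT58A against EV, 0.14 ± 0.48 for MycT58A against control and 0.46 ± 0.48 for EV against control (edgeR adjusted p = 0.664, 0.814 and 0.427). Notch3, the receptor of vascular mural cells, had 15.8, 24.1 and 12.2 CPM in MycT58A tumours, 9.01, 53.1 and 37.8 CPM in EV tumours and 19.8, 17.9 and 19.3 CPM in control. EV replicate 1 held its lowest value and EV replicate 2 its highest. No comparison of Notch3 passed (MycT58A against EV -0.94 ± 0.55, edgeR adjusted p = 0.274). Notch4, the endothelial receptor, had 4.96, 8.23 and 3.92 CPM in MycT58A tumours, 6.64, 18.5 and 7.94 CPM in EV tumours and 6.62, 6.42 and 5.18 CPM in control. The EV libraries were all above the control libraries, EV replicate 1 only just, and the difference did not pass (log2 fold change 0.86 ± 0.46, edgeR adjusted p = 0.137).

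EV replicate 2 was the highest of all 9 libraries for Notch1, Notch3 and Notch4. It was also the highest for the summed vessel markers. The same held for the summed fibroblast markers (11824 CPM) and microglia markers (671 CPM), but not for the progenitor or epithelial markers. The 12 mural markers summed to 179, 246 and 177 CPM in MycT58A tumours, 1209, 3080 and 237 CPM in EV tumours and 358, 345 and 324 CPM in control, of which Vtn made up 2241 CPM in EV replicate 2 and Acta2 765 CPM in EV replicate 1. The 13 endothelial markers summed to 110, 145 and 88.0 CPM in MycT58A tumours, 87.3, 428 and 162 CPM in EV tumours and 286, 257 and 265 CPM in control. All 12 and all 13 genes were detected in every library. EV replicate 1 had a mural sum above every control, the lowest Notch3 value (9.01 CPM) and a Notch4 value just above the controls (6.64 CPM). The part of vessel cells, fibroblasts or microglia in these values was not tested.

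**Figure D2:**
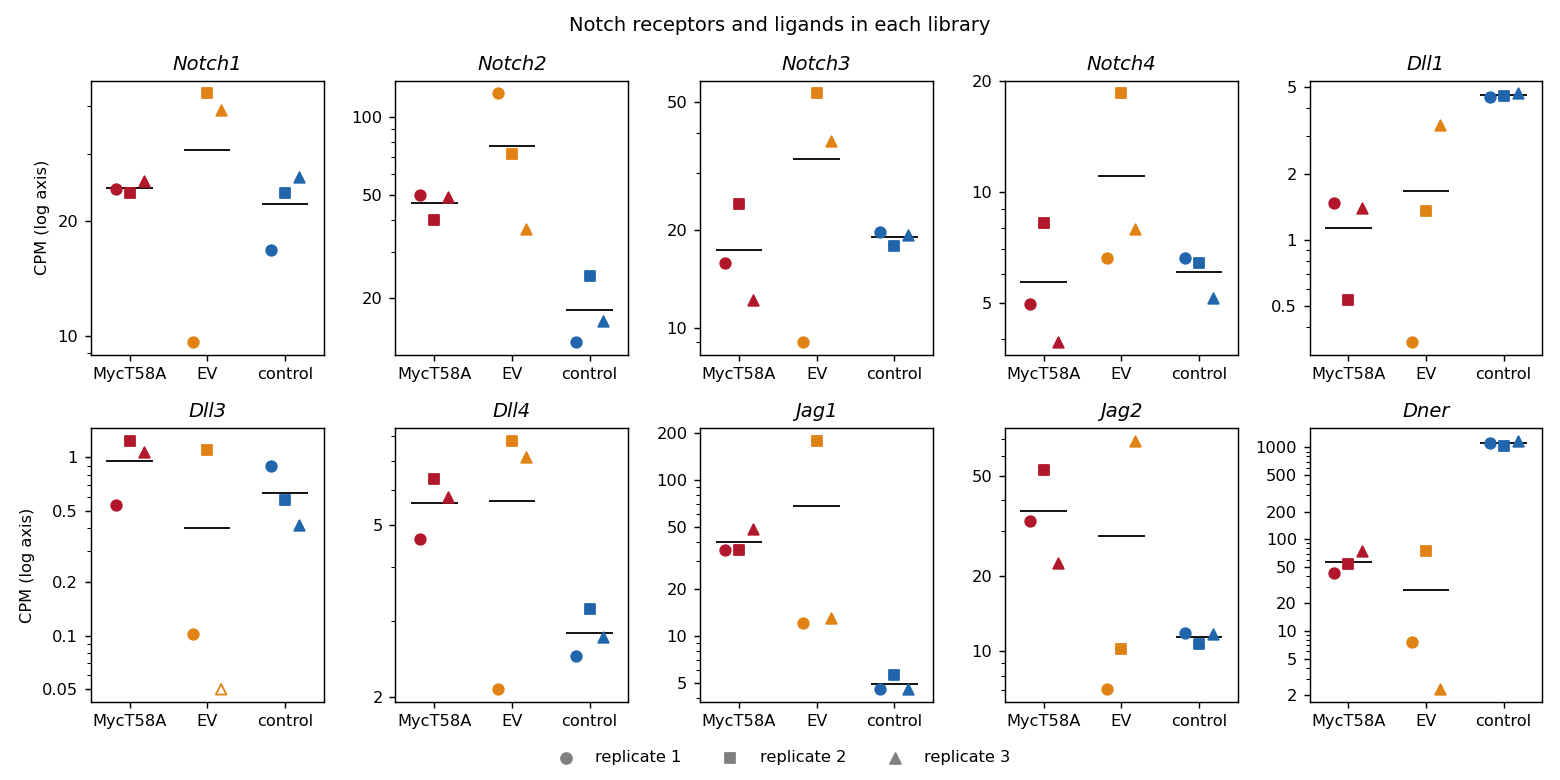
CPM of each member in the 9 libraries on log axes, with the MycT58A, EV and control groups from left to right, a marker shape for each replicate number and a line at each group mean. The open triangle for Dll3 stands for a library with 0 counts and is drawn at the foot of the axis. Dner and Dll1 separate all tumour from all control libraries downwards, Notch2 and Jag1 separate them upwards, and the EV points lie furthest apart.

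Jag1 was the ligand that rose. It encodes a Jagged ligand with a large extracellular part that binds Notch receptors in trans, and it lies on chromosome 2 at 137081456 to 137116644 (mm10, minus strand). Jag1 had 35.5, 35.6 and 48.4 CPM in MycT58A tumours, 12.1, 179 and 13.0 CPM in EV tumours and 4.54, 5.58 and 4.53 CPM in control cerebellum. The MycT58A libraries were alike, while EV replicate 2 stood far above the other EV libraries, and all 6 tumour libraries were above the controls. Against control, Jag1 was 8.15-fold higher in MycT58A tumours (log2 fold change 3.03 ± 0.98 SE, edgeR adjusted p = 0.0249) and 13.9-fold higher in EV tumours (3.80 ± 1.01, edgeR adjusted p = 0.0121). Without EV replicate 2 the fold in EV tumours was 2.58 (edgeR adjusted p = 0.00084). The call in MycT58A tumours was lost with limma-voom (adjusted p = 0.0571) and without any 1 of the control libraries or MycT58A replicate 3 (edgeR adjusted p between 0.0582 and 0.0710). The call in EV tumours was lost with limma-voom (adjusted p = 0.0986), and DESeq2 gave no adjusted p for Jag1 in any comparison. MycT58A against EV gave -0.77 ± 0.91 (edgeR adjusted p = 0.583, 95% interval -2.84 to 1.29), and its sign turned with limma-voom (0.35). Fibroblast markers (7 genes, all detected in every library) summed to 1886 to 2310 CPM in MycT58A tumours and 166 to 279 CPM in control. In the libraries labelled EV replicates 1, 2 and 3 they summed to 3272, 11824 and 8581 CPM. The part of fibroblasts in the Jag1 values was not tested.

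Jag2, the other Jagged ligand, had 33.1, 52.7 and 22.4 CPM in MycT58A tumours, 7.06, 10.2 and 69.0 CPM in EV tumours and 11.8, 10.7 and 11.7 CPM in control cerebellum. All MycT58A libraries were above the controls, EV replicates 1 and 2 were below the lowest control value, and the library labelled EV replicate 3 was the highest of all. Jag2 was 3.16-fold higher in MycT58A tumours than in control, which did not pass (log2 fold change 1.66 ± 0.79 SE, edgeR adjusted p = 0.096), although it did with only these 2 groups in the fit (edgeR adjusted p = 0.00117) with group weights in limma-voom (0.00106) and without the library labelled EV replicate 3 (edgeR adjusted p = 0.00271). EV against control gave 1.33 ± 0.78 (edgeR adjusted p = 0.174) with that library and -0.39 without it. The 8 epithelial markers summed to 404 CPM in the library labelled EV replicate 3, against 28.6 and 42.3 CPM in the other EV libraries, 49.2 to 66.1 CPM in MycT58A tumours and 12.2 to 23.8 CPM in control. Krt5, an epithelial marker, had no count in control replicates 1 and 2, Krt14 none in control replicate 2 and MycT58A replicate 2, and Krt18 none in MycT58A replicate 2. The part of epithelial cells in the Jag2 value was not tested.

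Among the Delta ligands, Dll1 fell in MycT58A tumours. Dll1 is a Delta ligand of neural progenitors and lies on chromosome 17 at 15367354 to 15376872 (mm10, minus strand). It had 1.48, 0.53 and 1.41 CPM in MycT58A tumours, 0.34, 1.36 and 3.35 CPM in EV tumours and 4.49, 4.56 and 4.67 CPM in control cerebellum. All tumour libraries were below the controls, which were nearly equal. Dll1 was 4.01-fold lower in MycT58A tumours than in control (log2 fold change -2.00 ± 0.75 SE, edgeR adjusted p = 0.0434), a call that was lost with no low-count filter (0.0611) and without any 1 of the MycT58A or control libraries (edgeR adjusted p between 0.0784 and 0.131). EV against control gave -1.45 ± 0.74 (edgeR adjusted p = 0.121), -2.06 with limma-voom (adjusted p = 0.0321) and -2.42 without the library labelled EV replicate 3 (edgeR adjusted p = 0.0169). The Dll1 sums were 89 counts in MycT58A tumours, 101 in EV tumours and 313 in control.

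Dll4, the Delta ligand of endothelial tip cells, had 4.64, 6.39 and 5.80 CPM in MycT58A tumours, 2.09, 7.82 and 7.14 CPM in EV tumours and 2.49, 3.19 and 2.75 CPM in control. The MycT58A libraries were above the controls and EV replicate 1 was below them. The log2 fold change was 0.99 ± 0.48 SE for MycT58A against control and 1.01 ± 0.48 for EV against control, neither past the threshold (edgeR adjusted p = 0.101 and 0.102). The MycT58A difference did pass with only these groups in the fit (edgeR adjusted p = 0.00494), with group weights in limma-voom (0.00387) and without EV replicate 1 (edgeR adjusted p = 0.0118), and the EV difference without EV replicate 1 (0.00536). The endothelial marker sums were 88.0 to 145 CPM in MycT58A tumours and 257 to 286 CPM in control, and their part in the Dll4 values was not tested. Dll3, a divergent Delta protein that acts within the cell that makes it, was the least counted member, with 0.54, 1.24 and 1.07 CPM in MycT58A tumours, 0.10, 1.10 and 0 CPM in EV tumours and 0.90, 0.58 and 0.42 CPM in control. The EV sum was 29 counts, of which 26 came from EV replicate 2. No Dll3 difference passed, and at this depth a difference below several-fold was not detectable (95% interval of the log2 fold change from -1.25 to 3.68 for MycT58A against EV).

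Dner was the most abundant member in normal cerebellum and fell furthest in the tumours. It lies on chromosome 1 at 84369839 to 84696221 (mm10, minus strand). Dner had 43.4, 53.7 and 74.0 CPM in MycT58A tumours, 7.57, 74.1 and 2.32 CPM in EV tumours and 1111, 1028 and 1189 CPM in control cerebellum. The control libraries were within 1.16-fold of each other, while the EV libraries spanned 31.9-fold, with EV replicate 2 level with the highest MycT58A value. Against control, Dner was 19.4-fold lower in MycT58A tumours (log2 fold change -4.28 ± 1.10 SE, edgeR adjusted p = 0.00893) and 39.6-fold lower in EV tumours (-5.31 ± 1.16, edgeR adjusted p = 0.00477). Both calls held under all 17 alternatives. Without EV replicate 2 the fold in EV tumours was 220 (edgeR adjusted p = 3.38e-05). MycT58A against EV gave 1.03 ± 0.98 (edgeR adjusted p = 0.496). All 10 Purkinje cell markers were lower in both tumour groups than in control. They summed to 96.5 to 163 CPM in MycT58A tumours, 106 to 315 CPM in EV tumours and 11526 to 12610 CPM in control, and Pcp2 had 0.07 to 1.36 CPM in MycT58A tumours and 0.10 to 0.51 CPM in EV tumours. Granule neuron markers (12 genes) summed to 35.4 to 84.8, 16.7 to 69.8 and 5108 to 7370 CPM, and inhibitory interneuron markers (8 genes) to 99.3 to 130, 39.6 to 65.6 and 2631 to 3189 CPM, in MycT58A, EV and control libraries in that order. Among these markers Gng13 had no count in EV replicate 1, and Slc6a5 none in any EV library or in MycT58A replicate 3. The part of lost neurons in the Dner difference was not tested.

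The EV tumours differed among themselves more than the MycT58A tumours did. The SD of log2 CPM over the libraries was larger in EV than in MycT58A for 10 of 10 members, and for 86.1% of all genes tested. Its median over the members was 1.43 in EV tumours and 0.44 in MycT58A tumours, beside 0.64 and 0.20 over all genes. Which members passed between MycT58A and EV tumours changed when EV libraries were left out 1 at a time. Without EV replicate 1, Notch3 was 2.60-fold lower in MycT58A tumours (edgeR adjusted p = 0.0334). Without EV replicate 2, Jag1 was 3.17-fold higher (edgeR adjusted p = 0.00453) and Dner 11.4-fold higher (0.00554). Dll3 also passed then (edgeR adjusted p = 0.0299), on 75 counts in MycT58A tumours against 3 in the remaining EV libraries, a ratio of 14.7 per library size with an exact 95% interval of 4.85 to 73.1 that covers counting error only. Without the library labelled EV replicate 3, Jag2 was 4.21-fold higher (edgeR adjusted p = 0.0103) and Notch2 was 2.12-fold lower (0.0406). No member passed under more than 1 of these omissions. The counts of 1, 3 and 2 of 10 members without EV replicate 1, 2 or 3 stand beside 12.5%, 16.6% and 25.7% of all genes tested under the same omissions. In EV against control, 6 members passed without EV replicate 1, with Notch1, Notch3 and Dll4 added as higher, 4 without EV replicate 2, with Dll3 added as lower, and 4 without the library labelled EV replicate 3, with Dll1 added as lower, beside 55.4%, 65.9% and 58% of all genes tested.

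**Figure D3:**
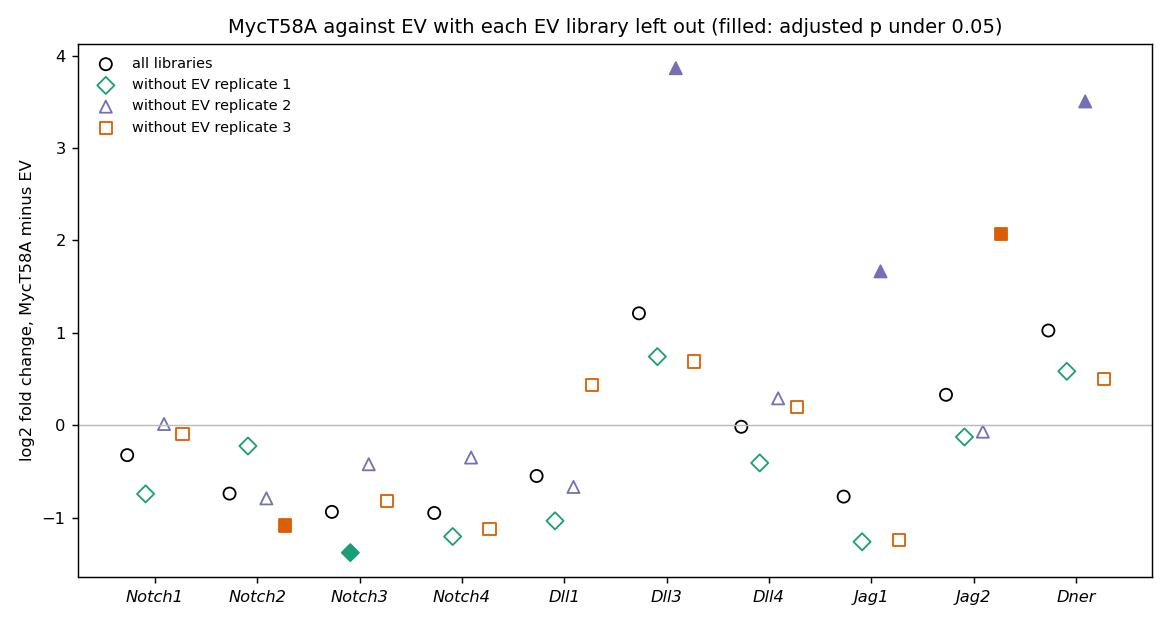
Log2 fold change of each member for MycT58A minus EV with all libraries and with each EV library left out, filled where the edgeR adjusted p was under 0.05. With all libraries no point is filled, and Notch3, then Dll3, Jag1 and Dner, then Notch2 and Jag2 fill as EV replicate 1, 2 or 3 is removed.

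Levels of different genes were compared per length, as TPM, the length-scaled counterpart of CPM, computed from the counts and the union exon length of each gene in GENCODE vM21. In MycT58A tumours the order of mean TPM was Dner at 37.0 ± 10.5 (SD, n = 3), Jag1 at 21.2 ± 4.35, Jag2 at 15.9 ± 6.16, Notch2 at 13.4 ± 2.12, Notch3 at 6.60 ± 2.06, Notch1 at 5.34 ± 0.37, Dll4 at 4.50 ± 0.58, Notch4 at 2.18 ± 0.77, Dll3 at 1.03 ± 0.37 and Dll1 at 0.85 ± 0.41. Within that order Jag1 and Jag2, Jag2 and Notch2, Notch3 and Notch1, and Dll3 and Dll1 overlapped in range, and the other neighbours did not. In EV tumours Jag1 led at 44.9 ± 64.9 TPM, before Notch2 at 25.3 ± 12.8, Dner at 22.5 ± 32.9, Notch3 at 15.3 ± 11.0, Jag2 at 14.9 ± 17.9, Notch1 at 7.98 ± 5.07, Dll4 at 5.45 ± 3.23, Notch4 at 5.07 ± 3.39, Dll1 at 1.46 ± 1.30 and Dll3 at 0.54 ± 0.84, and each gene overlapped with the next. In control cerebellum Dner stood at 966 ± 55.2 TPM, and the next member, Notch3, at 9.79 ± 0.14. Behind it came Notch2 at 7.01, Jag2 at 6.83, Notch1 at 6.53, Dll1 at 4.52, Jag1 at 3.50, Notch4 at 3.14, Dll4 at 3.05 and Dll3 at 0.92 TPM. Control neighbours overlapped except for Dner and Notch3, Notch1 and Dll1, Dll1 and Jag1, and Dll4 and Dll3.

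Notch2 held a larger share of the receptor pool in 5 of 6 tumour libraries than in any control library. Summed receptor TPM was 28.4, 27.7 and 26.3 in MycT58A tumours, 46.4, 72.4 and 42.4 in EV tumours and 22.9, 30.1 and 26.4 in control. Notch2 made up 52.0%, 39.4% and 54.7% of it in MycT58A tumours, 81.4%, 35.9% and 28.9% in EV tumours and 21.9%, 32.5% and 23.6% in control. The MycT58A shares were all above the control shares, and the library labelled EV replicate 3 lay within the control range. Notch3 made up 21.9%, 31.8% and 18.1% in MycT58A tumours, 7.9%, 35.3% and 39.5% in EV tumours and 42.9%, 32.0% and 37.5% in control.

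Dner held nearly all of the ligand pool in normal cerebellum and a lesser share in every tumour library. It made up 41.9%, 41.4% and 53.0% of summed ligand TPM in MycT58A tumours, 29.7%, 30.7% and 3.2% in EV tumours and 98.1%, 97.9% and 98.2% in control. The other ligands summed to 40.1, 47.1 and 43.3 TPM in MycT58A tumours, 12.4, 136 and 53.1 TPM in EV tumours and 18.1, 20.0 and 18.3 TPM in control. Of that sum without Dner, Jag1 took 48.4%, 38.4% and 60.5% in MycT58A tumours, 55.3%, 88.0% and 15.1% in EV tumours and 17.3%, 20.8% and 17.5% in control. Jag2 took 37.8%, 47.6% and 23.4%, then 27.1%, 4.2% and 67.0%, then 37.7%, 33.4% and 38.0% in the same 3 groups. Jag2 led Jag1 in MycT58A replicate 2 and in the library labelled EV replicate 3, and Jag1 led in the other tumour libraries. With the longest transcript as length, Jag2 also led in MycT58A replicate 1, at 44.2% against 43.1% for Jag1. Dll1 took 2.8%, 0.8% and 2.4% in MycT58A tumours and 2.2%, 0.9% and 5.4% in EV tumours, against 23.7%, 23.5% and 25.0% in control. These shares are descriptions and were not tested.

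**Figure D4:**
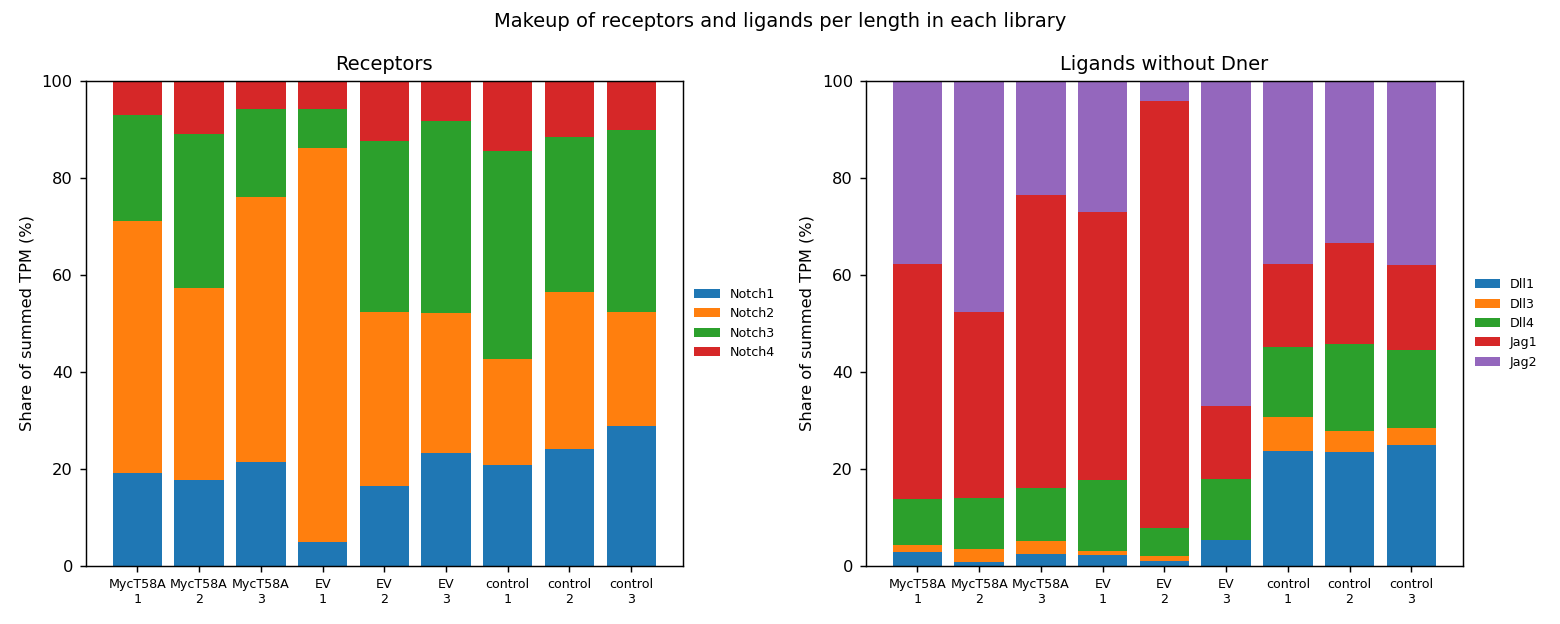
Share of each receptor in summed receptor TPM and of each ligand other than Dner in summed ligand TPM, in percent, 1 bar per library, with MycT58A, EV and control from left to right. Notch2 takes 81.4% of the receptors in EV replicate 1, Jag1 takes 88.0% of the ligands in EV replicate 2, and Jag2 takes 67.0% in the library labelled EV replicate 3, while the control bars are alike.

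For each member past the threshold, the 3 genes with the closest pattern were those with the smallest root mean square difference in centred log2 CPM over the 9 libraries, which share depth and tissue makeup. Notch2 was followed most closely by Zbtb10 (0.15), Tgfbr1 (0.19), a TGF-beta receptor, and Ralgps2 (0.21), on a Notch2 range of 3.19. Jag1 was followed by Plat (0.39), the tissue plasminogen activator, Elfn1 (0.40) and Cxcl15 (0.40), on a range of 5.28. Dner was followed by Stxbp5l (0.35), Grik3 (0.38), a kainate receptor subunit, and Sv2b (0.45), a synaptic vesicle protein, on a range of 8.95. Dll1 was followed by Ybx2 (0.31), Plcxd1 (0.35) and Liph (0.38), on a range of 3.48. Among the members themselves, Notch1 and Dll4 were the closest pair (0.39), before Notch1 and Notch3 (0.41) and Notch3 and Notch4 (0.45).

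Non-canonical ligands, proteins that bind or modulate Notch without being Delta or Jagged ligands, were measured with 7 tested genes of 8. Against control, 2 were higher and 4 lower in MycT58A tumours (median log2 fold change -1.82), 2 were higher and 3 lower in EV tumours (-1.30), and 0 passed between MycT58A and EV tumours (-0.52, 1 at an unadjusted p under 0.05). The counts of this and each further list past the adjusted threshold are read against all genes tested. Of these, 31.2% were higher and 31% lower in MycT58A tumours than in control. In EV tumours against control 30.7% were higher and 26.3% lower. In MycT58A against EV tumours 3.28% were higher and 5.02% lower. Mfap2, a microfibril protein, averaged 33.0 ± 4.53 CPM in MycT58A tumours, 63.4 ± 29.9 CPM in EV tumours and 0.65 ± 0.20 CPM in control (SD, n = 3 each), 50.6-fold and 97.3-fold higher than in control (edgeR adjusted p = 4.9e-05 and 3.81e-05). The contactins Cntn1 and Cntn6, neuronal adhesion molecules, fell. Cntn1 averaged 9.93 ± 5.07, 8.17 ± 6.18 and 505 ± 36.2 CPM in MycT58A, EV and control libraries, 50.8-fold and 61.6-fold lower than in control (edgeR adjusted p = 0.000169 and 0.000175), the second fold being 107 without EV replicate 2. Cntn6 averaged 0.34 ± 0.37, 0.21 ± 0.10 and 55.0 ± 7.43 CPM, 164-fold and 260-fold lower (edgeR adjusted p = 0.000102 for both), the first being 420 without MycT58A replicate 3. Nov, a secreted matrix protein also called CCN3, averaged 0.68 ± 0.41, 1.52 ± 1.10 and 25.2 ± 6.71 CPM, 36.3-fold and 16.8-fold lower (edgeR adjusted p = 0.000508 and 0.00159), the second being 25.9 without the library labelled EV replicate 3.

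Among the 10 genes of receptor cleavage, 5 were higher and 3 lower in MycT58A tumours than in control (median log2 fold change 0.37), 5 higher and 2 lower in EV tumours (0.50), and 1 was lower in MycT58A than in EV tumours (-0.29, 3 at an unadjusted p under 0.05). The same 5 genes were higher in both, namely the proteases Adam10, Adam17 and Furin and the gamma-secretase subunits Aph1a and Ncstn. Adam17 averaged 51.4 ± 4.95 CPM in MycT58A tumours, 57.5 ± 5.44 CPM in EV tumours and 22.0 ± 1.66 CPM in control, 2.33-fold and 2.61-fold higher than in control (edgeR adjusted p = 0.000427 and 0.000287). Aph1a was 1.92-fold and 2.75-fold higher (edgeR adjusted p = 0.00502 and 0.00071) and Furin 1.63-fold and 2.31-fold (0.0128 and 0.00118), the first not called without control replicate 1 or 3 (0.0559 and 0.0571). Psen2, a catalytic subunit of gamma-secretase, was the 1 pathway gene outside the members that passed between the tumour groups in the edgeR fit of all libraries. It had 6.22, 7.31 and 5.75 CPM in MycT58A tumours, 17.0, 15.8 and 11.6 CPM in EV tumours and 27.7, 27.8 and 29.3 CPM in control, with no overlap between any of the groups. Psen2 was 2.30-fold lower in MycT58A than in EV tumours (log2 fold change -1.20 ± 0.23 SE, edgeR adjusted p = 0.0232), 1.91-fold lower in EV tumours than in control (0.00805) and 4.39-fold lower in MycT58A tumours than in control (0.000136). Between the tumour groups it passed in 9 of 17 alternatives and was lost with only the 2 groups in the fit (edgeR adjusted p = 0.112), with group weights in limma-voom (0.0733) and without any 1 of the control or MycT58A libraries (edgeR adjusted p between 0.0572 and 0.108).

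Enzymes that add sugars to the receptor, which tune its response to Delta and Jagged ligands, gave 4 higher and 1 lower of 6 in MycT58A tumours against control (median log2 fold change 0.72), 2 higher and 1 lower in EV tumours (0.12), and 0 between the tumour groups (0.52, 2 at an unadjusted p under 0.05). Mfng, the Manic Fringe glycosyltransferase, averaged 29.0 ± 8.14 CPM in MycT58A tumours, 13.3 ± 17.0 CPM in EV tumours and 2.33 ± 0.28 CPM in control, 12.4-fold and 5.66-fold higher than in control (edgeR adjusted p = 0.00919 and 0.0412). The second of these rests on the library labelled EV replicate 3, without which it was 1.51-fold (edgeR adjusted p = 0.288). It was lost in 10 of 17 alternatives, among them only the 2 groups in the fit (edgeR adjusted p = 0.0847), limma-voom without and with group weights (0.293 and 0.249) and the omission of any 1 control or MycT58A library (edgeR adjusted p between 0.0561 and 0.108). Rfng, Radical Fringe, was 1.58-fold lower in MycT58A tumours and 1.64-fold lower in EV tumours (edgeR adjusted p = 0.0138 and 0.0106). The first call was lost without control replicate 1 or 3 or MycT58A replicate 3 (edgeR adjusted p between 0.0526 and 0.0696), and the second with group weights in limma-voom (0.0794) and without control replicate 1 (edgeR adjusted p = 0.0608). Eogt was 1.67-fold and 2.66-fold higher (edgeR adjusted p = 0.0216 and 0.00123), and Pofut1, which adds the O-fucose that Fringe enzymes extend, was 1.63-fold higher in MycT58A tumours (0.0285). In MycT58A tumours the Eogt call was lost without control replicate 1 or 2 or MycT58A replicate 1 or 2 (edgeR adjusted p between 0.0607 and 0.0715), and the Pofut1 call without any 1 of the control or MycT58A libraries (between 0.054 and 0.103). Pofut1 passed in EV tumours against control without EV replicate 2 (edgeR adjusted p = 0.0156).

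Genes of ligand endocytosis and receptor turnover moved in both directions. Of 16, 2 were higher and 8 lower in MycT58A tumours than in control (median log2 fold change -0.77), 4 higher and 8 lower in EV tumours (-0.76), and 0 passed between the tumour groups (-0.10, 3 at an unadjusted p under 0.05). Neurl1a, a ubiquitin ligase for Notch ligands that is abundant in neurons, averaged 2.18 ± 0.72 CPM in MycT58A tumours, 4.06 ± 1.76 CPM in EV tumours and 206 ± 44.0 CPM in control, 94.4-fold and 50.4-fold lower (edgeR adjusted p = 2.54e-05 and 3.88e-05). Dtx1, a Deltex ubiquitin ligase, was 67.3-fold and 25.7-fold lower (edgeR adjusted p = 4.5e-05 and 0.000111) and Mib2, a Mind bomb ligase, 2.84-fold and 2.72-fold (0.000656 and 0.000977). Nedd4, a ubiquitin ligase of many membrane proteins, was 3.83-fold higher in MycT58A tumours and 3.03-fold higher in EV tumours (edgeR adjusted p = 0.000321 and 0.000974).

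In the nuclear complex, 6 of 14 genes were higher and 1 lower in MycT58A tumours than in control (median log2 fold change 0.21), 5 higher and 1 lower in EV tumours (0.34), and 0 passed between the tumour groups (0.15, 2 at an unadjusted p under 0.05). Rbpj, the DNA-binding partner of cleaved Notch, averaged 107.5 ± 4.05 CPM in MycT58A tumours, 90.2 ± 12.2 CPM in EV tumours and 47.2 ± 4.10 CPM in control, 2.28-fold and 1.91-fold higher (edgeR adjusted p = 0.000401 and 0.0016). Maml1, the Mastermind coactivator, averaged 51.9 ± 1.97, 50.3 ± 3.27 and 14.7 ± 0.89 CPM in MycT58A, EV and control libraries, 3.53-fold and 3.42-fold higher than in control (edgeR adjusted p = 5.73e-05 and 7.37e-05). Tle1, a Groucho corepressor, was 5.20-fold and 3.92-fold higher (edgeR adjusted p = 0.000485 and 0.00142). Kat2b, an acetyltransferase, was 8.32-fold lower in MycT58A tumours (edgeR adjusted p = 0.00226) and did not pass in EV tumours (0.123), where it was lower with limma-voom (adjusted p = 0.0358) and without EV replicate 2 (edgeR adjusted p = 0.000815). Without the library labelled EV replicate 3, several of the pathway genes named above also passed between MycT58A and EV tumours. Under this omission 25.7% of all genes tested passed. Mfng was then higher (edgeR adjusted p = 0.00638), and Mfap2 (0.00939), Aph1a (0.0476), Eogt (0.0251), Neurl1a (0.0406), Dtx1 (0.00358) and Kat2b (0.0096) were lower in MycT58A tumours. With DESeq2 on all libraries, Kat2b (adjusted p = 0.00581), Eogt (0.011), Dtx1 (0.0125) and Furin (0.0368) also passed as lower in MycT58A tumours. In that fit 3446 of 15171 genes passed in all. The named genes were chosen by small adjusted p, so these counts are not shares of the lists.

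**Figure D5:**
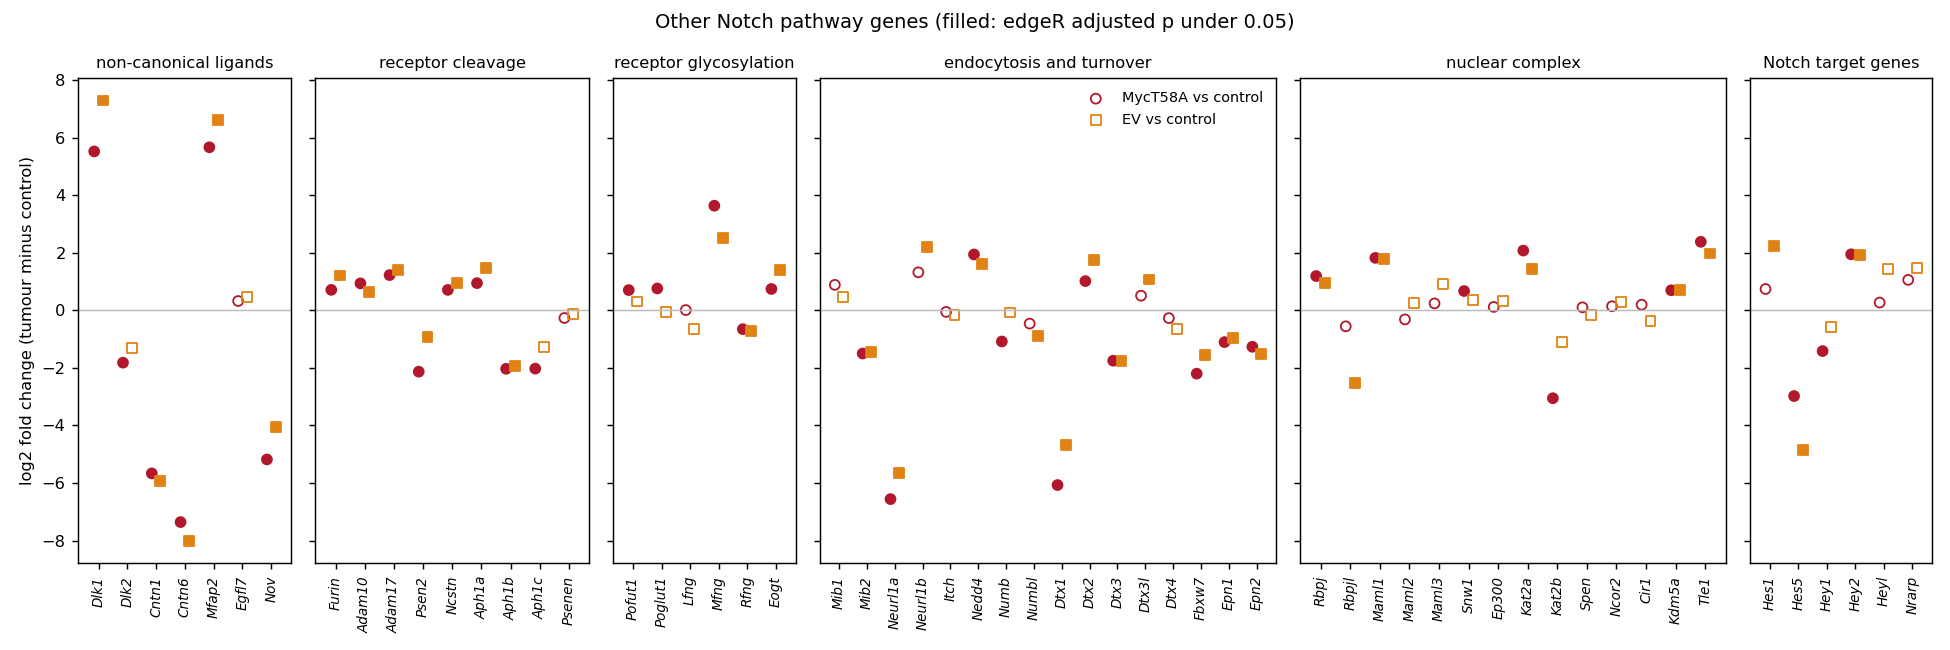
Log2 fold changes of tested genes from each pathway list, MycT58A minus control as circles and EV minus control as squares, filled where the edgeR adjusted p was under 0.05. Cntn1, Cntn6, Neurl1a and Dtx1 lie furthest below 0, Mfap2 and Dlk1 furthest above it, and Psen2 lies lower in MycT58A than in EV tumours.

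The classical target genes moved in both directions. Of the 6 tested of 7 (Hes7 had at most 11 counts in a library), 1 was higher and 2 lower in MycT58A tumours than in control (median log2 fold change 0.50), 2 higher and 1 lower in EV tumours (1.45), and 0 passed between the tumour groups (-0.62, 2 at an unadjusted p under 0.05). Hes1, a repressor that holds back neuronal differentiation, had 14.5, 10.2 and 13.5 CPM in MycT58A tumours, 14.1, 58.4 and 34.2 CPM in EV tumours and 8.79, 7.84 and 6.30 CPM in control. It was 4.65-fold higher in EV tumours than in control (edgeR adjusted p = 0.00412), and did not pass in MycT58A tumours against control (0.185) or against EV tumours (log2 fold change -1.48 ± 0.46 SE, edgeR adjusted p = 0.0749). MycT58A against control did pass with only these groups in the fit (edgeR adjusted p = 0.0119), with group weights in limma-voom (0.0228) and without EV replicate 1 (edgeR adjusted p = 0.0432). MycT58A against EV passed with DESeq2 (adjusted p = 0.0132) and, at -1.85, without EV replicate 1 (edgeR adjusted p = 0.0153). Hey2, a vascular and cardiac target, had 20.3, 23.0 and 13.0 CPM in MycT58A tumours, 5.65, 35.5 and 14.4 CPM in EV tumours and 4.58, 5.01 and 5.04 CPM in control, and was 3.84-fold and 3.80-fold higher (edgeR adjusted p = 0.0183 and 0.0213), the second being 2.06-fold and not called without EV replicate 2 (0.0532). The EV call was also lost with limma-voom, without and with group weights (adjusted p = 0.109 and 0.0754), and without any 1 control library (edgeR adjusted p between 0.0561 and 0.0632). The MycT58A call was lost without control replicate 1 or 2 or MycT58A replicate 2 (edgeR adjusted p between 0.0509 and 0.0555).

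Hey1 had 16.3, 14.2 and 19.6 CPM in MycT58A tumours, 17.2, 24.5 and 47.3 CPM in EV tumours and 40.8, 40.6 and 52.5 CPM in control. It was 2.67-fold lower in MycT58A tumours than in control (edgeR adjusted p = 0.00857). EV against control gave a log2 fold change of -0.59 (edgeR adjusted p = 0.185) with all libraries and -1.08 (0.00702) without the library labelled EV replicate 3. Hes5, a target of neural progenitors and glia, was low everywhere, with 2, 4 and 11 counts in MycT58A libraries, 0, 4 and 0 counts in EV libraries and 48, 45 and 31 counts in control libraries. It was 7.90-fold lower in MycT58A tumours (edgeR adjusted p = 0.0262, 16.0-fold without MycT58A replicate 3) and 28.9-fold lower in EV tumours (0.00664, 18.5-fold without EV replicate 1). The MycT58A call was lost without any 1 of the control libraries or MycT58A replicate 1 or 2 (edgeR adjusted p between 0.0522 and 0.0956). Without EV replicate 2 the EV libraries held no count, and the level was at least 28.3-fold lower with 3 counts over the EV group taken as the floor. Heyl had 3.89, 2.98 and 3.15 CPM in MycT58A tumours, 2.43, 16.7 and 3.46 CPM in EV tumours and 3.68, 2.13 and 2.52 CPM in control. Nrarp, a feedback inhibitor, had 6.30, 6.14 and 6.05 CPM in MycT58A tumours, 2.09, 6.07 and 16.4 CPM in EV tumours and 2.74, 2.70 and 3.45 CPM in control. With all libraries neither passed in any comparison. Heyl passed in EV tumours against control, as higher, without EV replicate 1 (edgeR adjusted p = 0.0338). Nrarp did so with DESeq2 (adjusted p = 0.0417) and without EV replicate 1 (edgeR adjusted p = 0.007). In MycT58A tumours against control Nrarp passed, as higher, with only these groups in the fit (edgeR adjusted p = 0.00206), with group weights in limma-voom (0.00334) and without EV replicate 1 or the library labelled EV replicate 3 (edgeR adjusted p = 0.041 for both). EV replicate 2 was the highest library for Hes1, Hey2 and Heyl as it was for Notch1, Notch3, Notch4 and Jag1, and the library labelled EV replicate 3 was the highest for Nrarp and Jag2.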

How the data were processed

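Bulk RNA sequencing of 9 mouse libraries was used, 3 each of MycT58A tumours, EV tumours and normal cerebellum. The deposited values are whole-number counts per gene symbol. Per the submitters' processing notes, bcl2fastq, TopHat and edgeR were used with the mm10 build; the read counter and the use of strand were not stated there. Without strand, counts of genes that overlap are uncertain, and Notch1, Notch3, Notch4, Dll1, Dll4 and Dner overlap genes on the opposite strand. Replicates were numbered in sample order.

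Counts were filtered with filterByExpr of edgeR 4.0.16 (R 4.3.3; minimum count 10, minimum total 15) with TMM scaling. The glmQLFit model had 3 group means over the 9 libraries (6 residual degrees of freedom), compared with glmQLFTest and with p adjusted over the 15171 genes kept. The SE is the log2 fold change over the root of F. TPM used exon lengths of 23695 of the 24444 symbols. The members and the 197 listed genes, all matched in the table, were chosen with earlier results of these data known. From each pathway list at most 4 genes past the threshold are named by smallest adjusted p, and every target gene. The values of 1 listed gene are not reported or drawn here. Alternatives were RLE scaling, library size alone, 2 other filters, only the 2 groups compared, DESeq2 1.42.0, limma-voom (limma 3.58.1) with and without group weights, the longest transcript as length, and leaving out each library. The code was tested on simulated counts that had the spread of the control libraries in every group. They do not show how the fit behaves with the wider spread of the EV libraries. Floors and intervals on counts cover counting error only. Figures used matplotlib 3.10.9.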

Additional observations from a re-analysis of the deposited data

How the results depend on the processing

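No paired analysis was possible because the labels give the groups no shared replicate numbers. Over 1472 alternative values of single genes, 1343 kept direction and side of the threshold, 66 lost the call, 30 gained one and 33 turned sign, and 0 of the 882 from called differences turned. Named pathway genes other than targets entered only in comparisons they passed in the chosen fit. Calls they gained in other comparisons are therefore not counted, and the tally is not a rate over all genes. Jag1 between the tumour groups without EV replicate 2 turned sign and passed, and is counted only as turned. Between MycT58A and EV tumours the count of all genes past the threshold was 1259 in the chosen fit, 34 with only the 2 groups compared, 3446 with DESeq2, 449 with group weights in limma-voom and 36 to 3977 with 1 library left out. It split into 498 higher and 761 lower, against 301 and 938 with library size alone and 884 and 629 with limma-voom. The median of all genes moved from -0.04 to -0.17 with library size alone. With 1 library left out, 0 to 3 of 10 members passed for MycT58A against EV, beside 0.232% to 25.7% of all genes tested. For MycT58A against control 1 to 5 passed, beside 8012 to 10860 genes (51.9% to 70.3%). For EV against control 3 to 6 passed, beside 6954 to 10186 genes (44.9% to 65.9%). With the longest transcript as length, 8, 4 and 6 of 10 members kept their rank in MycT58A, EV and control. For MycT58A against EV the sign turned with limma-voom, without and with group weights, for Notch1 (0.034 and 0.039), Dll4 (0.26 and 0.28), Jag1 (0.35 and 0.35) and Nrarp (0.20 and 0.23). Hey2 was -0.035 with RLE scaling, -0.14 with library size alone, -0.023 with a filter of 1 CPM, -0.045 with only 2 groups and -0.035 with DESeq2. With 1 library left out, the log2 fold changes that turned ranged for MycT58A against EV from -0.74 to 0.013 (Notch1), -1.03 to 0.43 (Dll1), -0.41 to 0.29 (Dll4), -1.26 to 1.67 (Jag1), -0.13 to 2.07 (Jag2), -0.41 to 0.91 (Hey2), -0.86 to 0.61 (Nrarp) and -1.58 to 0.19 (Heyl). They ranged for EV against control from -0.39 to 1.80 (Jag2), and for MycT58A against control from -0.017 to 0.29 (Notch1), -0.43 to 0.078 (Notch3) and -0.44 to 0.13 (Notch4). Causes were not tested. Depth limits Dll3, Dll1 and Hes5, which had under 5 CPM in every library. It also limits the folds of Cntn6, which had at most 18 counts in a tumour library.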
